A study of Homo sapiens with 4 samples.

Results

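The 10 genes described here are the receptors NOTCH1, NOTCH2 and NOTCH3, the ligands JAG1, JAG2 and DLL1, the fringe enzyme LFNG, and the target genes HES1, HES4 and HEY1. They are the rows of the deposited count table whose gene symbol equals one of these names, 10 of 20372 genes. RNA was sequenced from TPC1, an established human papillary thyroid carcinoma line that carries a CCDC6-RET fusion, grown in DMEM with fetal bovine serum. The cells were treated with BLU6864, a selective inhibitor of the RET kinase, for 6 h or for 24 h, with 2 libraries at each time. All 4 libraries therefore share the same line, fusion and inhibitor, and libraries from vehicle-treated cells were not analysed here, so time in culture and time in inhibitor cannot be told apart. The sample labels give the dose as 100 µM and the methods as 100 nM, and the labels mark both 24 h libraries, and neither 6 h library, as a re-analysis, so that label and time cannot be told apart. The labels do not say that the 2 libraries of a time point came from separate cultures, so P values measure the spread between these libraries, which may be technical.

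Notch receptors are single-pass membrane proteins that are activated by Jagged or Delta-like ligands on a neighboring cell. Ligand binding exposes the receptor to ADAM proteases and then to γ-secretase, and the released intracellular fragment joins the DNA-binding protein RBPJ and Mastermind coactivators in the nucleus. Several HES and HEY genes are the classic targets and encode basic helix-loop-helix repressors. Fringe enzymes modify the sugars of the receptor and so change which ligands it answers. The pathway is known for setting cell fates between neighboring cells, and in thyroid epithelium it has been studied for its part in differentiation.

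RefSeq promoter windows, which run from 250 bases before a gene start to 50 after it on GRCh38.p14, were found for 8 of the 10 genes. The core of the RBPJ site, TGGGAA, was searched on both strands, and it lies in 24.0% of all 35116 windows. The longer form TGTGGGAA, which contains the core, lies in 1.71% of them. DLL1 and HEY1 were not searched, so whether their promoters hold these sequences is not known here. Among the 8 genes searched the core was found in HES1, HES4 and LFNG, and the longer form in HES1 and HES4. The 250 bases before the start of these last genes are shown because both hold the longer form and both genes were higher at 24 h. Capitals mark the core TGGGAA. The HES1 sequence is chr3:194135898-194136147 on the plus strand, and the HES4 sequence is chr1:1000098-1000347 on the minus strand.
HES1: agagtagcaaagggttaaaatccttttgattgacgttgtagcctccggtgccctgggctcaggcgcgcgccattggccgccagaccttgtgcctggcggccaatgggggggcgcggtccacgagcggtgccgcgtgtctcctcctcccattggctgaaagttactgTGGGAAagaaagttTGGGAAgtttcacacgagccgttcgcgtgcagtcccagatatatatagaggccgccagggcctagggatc
HES4: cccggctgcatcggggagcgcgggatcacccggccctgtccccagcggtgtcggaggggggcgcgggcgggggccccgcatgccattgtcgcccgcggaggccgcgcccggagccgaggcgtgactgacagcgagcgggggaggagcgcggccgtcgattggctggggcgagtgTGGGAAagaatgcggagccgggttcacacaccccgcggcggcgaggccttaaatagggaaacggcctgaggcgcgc

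HES1 held the core at 84 and at 70 bases before the start, both on the strand of the gene, and the first copy belonged to the longer form. Of all windows, 3.80% held at least 2 copies. HES4 held 1 copy, at 76 bases before the start. The HES binding sequence known as the N box, CACNAG, was found 4 times in the HES1 window, in none of the HES4 window, and in 38.0% of all windows. These matches describe letters in a window and were not measured as bound sites.

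Of the 10 genes, 7 were higher at 24 h, 2 were lower and 1 was not called (edgeR quasi-likelihood test, Benjamini-Hochberg adjusted P under 0.05). JAG1, LFNG, HES1, HES4, NOTCH1, JAG2 and NOTCH2 rose, HEY1 and NOTCH3 fell, and DLL1 was 0.26 higher on the log2 scale without passing the test. The comparison was broad, since 33.0% of the 12876 genes tested were called higher and 32.6% lower. The median log2 fold change was 0.77 over the 10 genes, all of which passed the filter on low counts, and 0.0029 over all genes tested. The 10 genes were chosen with earlier results of these data known, so this contrast is a description only. With the cutoffs of the study, a log2 fold change beyond 0.5 and an unadjusted P under 0.01, the counts were 7 higher and 1 lower, against 17.4% of all genes higher and 17.7% lower, and NOTCH3 was the gene that no longer counted. The 24 h values lay entirely above the 6 h values in 8 of the 10 genes and entirely below them in the other two. Over all genes tested these shares were 41.0% and 40.8%. JAG1 had the largest change of the 10, and 5.05% of all genes tested had a larger one in either direction. This percentage was 6.54% for LFNG, 7.74% for HEY1, 11.6% for HES1 and 62.0% for DLL1. In bulk RNA, fewer cells that express a gene and less of its RNA in each cell cannot be told apart.

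**Figure D1:**
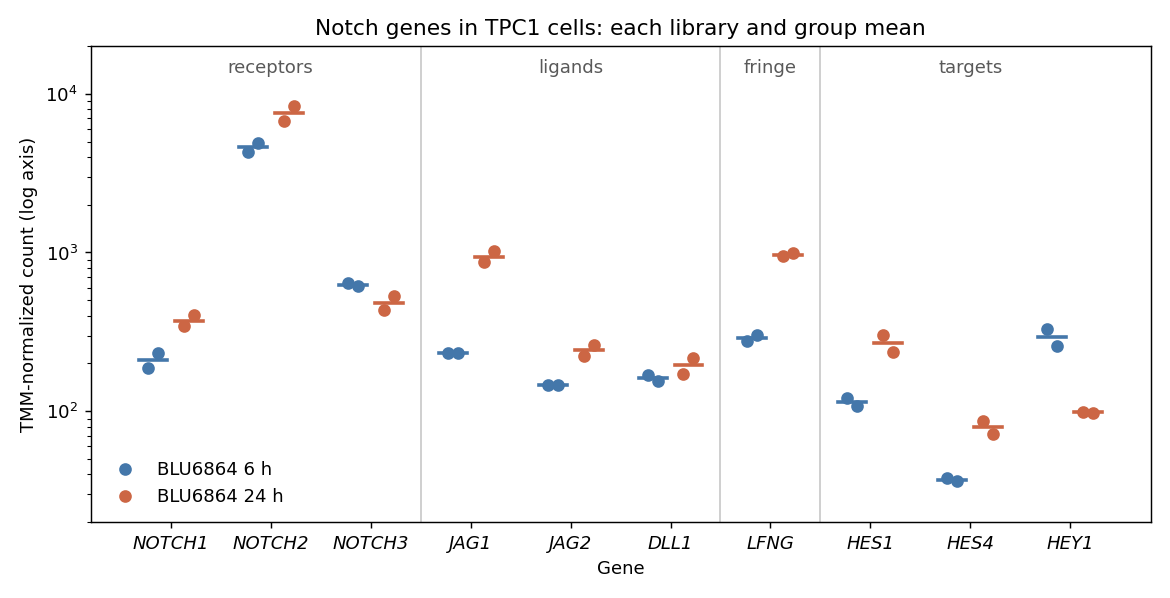
TMM-normalized counts (log axis) of the 10 Notch genes in each library, with 6 h in blue, 24 h in orange and a bar at the mean of the 2 libraries. The 2 times do not overlap for any gene. The gap is widest for JAG1 and LFNG and narrowest for DLL1, where the lower 24 h library, at 171, sits beside the higher 6 h library, at 169.

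Depth was alike across libraries, with 23917056 to 27457040 counts assigned to genes in each. Rank correlations across genes were at least 0.998 within a time and at most 0.941 between times. Of the thyroid markers, the transcription factor PAX8 was abundant and was not called (log2 fold change -0.057), FOXE1 rose by 0.84, TG fell by 1.09, and NKX2-1 and TSHR had at most 3 counts in every library. The summed epithelial markers, mostly the keratins KRT8 and KRT18, were 3330 to 3351 normalized counts at 24 h and 2979 to 3107 at 6 h. Within that list KRT7 and KRT18 rose by 0.84 and 0.37, KRT19 fell by 1.59, and EPCAM had 1 count in each 24 h library against 11 and 6. Of 5 white blood cell markers, 4 had at most 3 counts in every library. The summed fibroblast markers were lower at 24 h, 245 to 291 against 605 to 624, with COL1A1 and PDGFRB lower, LUM higher (log2 fold change 0.75), and COL1A2 and DCN at 3 counts or fewer in every library. The endothelial sum, over the 4 markers in the table, was 28.2 to 54.8 at 24 h and 514 to 549 at 6 h. At 6 h almost all of it was KDR, which had 43.8 and 21.4 at 24 h, and CDH5 was at 3 counts or fewer. The part of these differences in the Notch values was not tested.

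Of the receptors, NOTCH2 was by far the most abundant and rose together with NOTCH1, whereas NOTCH3 fell. NOTCH2 (ENSG00000134250, hg19 chr1:120454176-120612240) had 6721 and 8401 normalized counts at 24 h and 4312 and 4878 at 6 h. The 24 h values lay above the 6 h values, although the 24 h libraries differed from each other by 1.25 times. Its mean was 7561 ± 1188 (SD, n = 2) at 24 h against 4595 ± 400.2, a log2 fold change of 0.72 (SE 0.0878, edgeR quasi-likelihood test, Benjamini-Hochberg adjusted P = 6.57e-08). NOTCH2 shares near-identical sequence with NOTCH2NL, and reads could be split between them by the counting. NOTCH2NL had 170 and 182 counts at 24 h and 210 and 243 at 6 h, far fewer than the 3994 to 8633 of NOTCH2, and its log2 fold change was -0.41.

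NOTCH1 (ENSG00000148400, chr9:139388896-139440314), the receptor best known from T cell development and leukemia, had 343 and 403 normalized counts at 24 h and 187 and 233 at 6 h. The times did not overlap. The mean rose from 209.9 ± 32.8 to 373 ± 42.5 (SD, n = 2), a log2 fold change of 0.82 (SE 0.122, edgeR adjusted P = 1.55e-06). NOTCH3 (ENSG00000074181, chr19:15270444-15311792), a receptor known mainly from vascular smooth muscle, had 434 and 533 at 24 h and 638 and 619 at 6 h. It was the only receptor of the 3 that was lower in both 24 h libraries. Its mean fell from 628 ± 13.6 to 484 ± 69.9, a log2 fold change of -0.38 (SE 0.0972, edgeR adjusted P = 0.00143). Without the first 24 h library the value was -0.23 and NOTCH3 did not pass the test (edgeR adjusted P = 0.0660).

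Transcripts rich in G and C were shifted upward at 24 h as a class, and this touches several of the 10 genes. The median log2 fold change was 0.17 for tested genes whose transcript has over 60% GC and -0.15 for those under 45%. It was 0.34 for the 227 transcripts over 60% GC that are also longer than 5000 bases, of which 55.1% were called higher and 12.8% lower. NOTCH1, NOTCH3 and JAG2 belong to that class, with 63.5%, 63.1% and 64.1% GC, whereas NOTCH2 has 49.4%. LFNG (63.15%) and HES4 (73.9%) are also over 60% GC, with transcripts shorter than 5000 bases. With the trend on length and GC removed, an alternative chosen after seeing the data, the log2 fold change of NOTCH1 was 0.43 (edgeR adjusted P = 0.00150), that of JAG2 was 0.39 (edgeR adjusted P = 0.00793), and that of NOTCH3 was -0.76 (edgeR adjusted P = 1.51e-08). All 3 kept their direction and their call, and the counts over the 10 genes stayed at 7 higher and 2 lower. In the same run LFNG was at 1.61 and HES4 at 0.97, against 1.74 and 1.09 with the trend left in.

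**Figure D2:**
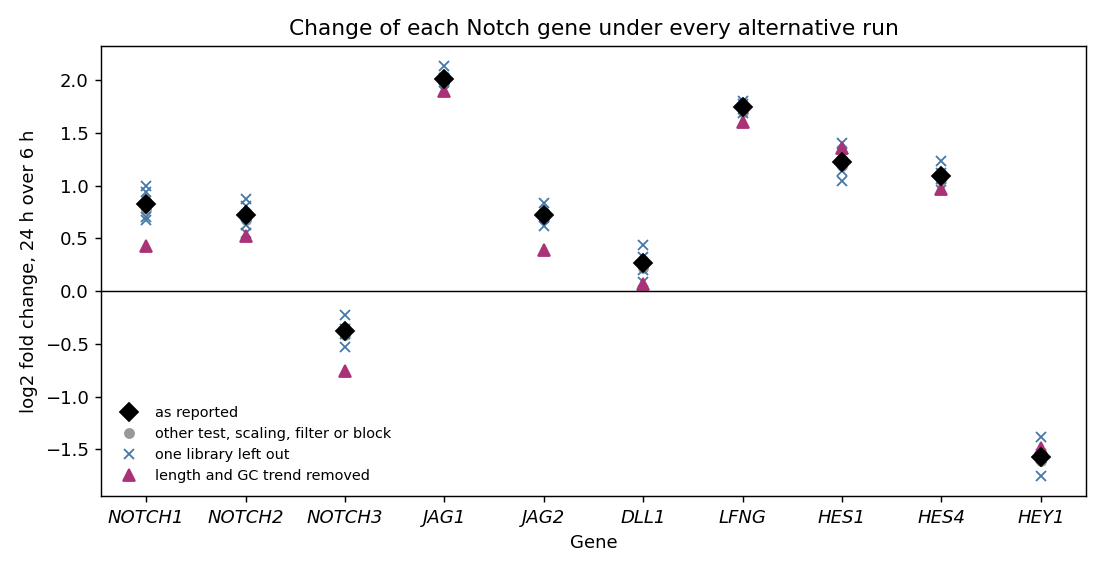
Log2 fold change (24 h over 6 h) of each of the 10 Notch genes as reported (diamonds), with 1 library left out (crosses), with another test, scaling, filter or block (circles, mostly behind the diamonds) and with the length and GC trend removed (triangles). No point lies across 0 from its diamond. NOTCH1, NOTCH3 and JAG2 moved most when the trend was removed, and DLL1 ranged from 0.066 to 0.43.

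Because every receptor was counted in the same library, their shares do not depend on scaling between libraries. They were not corrected for the trend on length and GC. With that trend removed, the log2 fold change was 0.43 for NOTCH1, 0.52 for NOTCH2 and -0.76 for NOTCH3, so NOTCH1 did not rise more than NOTCH2. Per kilobase of transcript, NOTCH2 made up 87.3% and 87.7% of the summed receptor counts at 24 h and 80.2% and 81.7% at 6 h. NOTCH3 made up 7.42% and 7.32% at 24 h and 15.6% and 13.6% at 6 h. NOTCH1 made up 5.31% and 5.02% at 24 h and 4.15% and 4.66% at 6 h. The receptor pool was thus dominated by NOTCH2 at both times, and the NOTCH3 share at 24 h was 0.504 times that at 6 h, with no overlap between times for any of the 3. With 2 libraries against 2 an exact permutation test cannot give a P below 0.333, so shares and ratios are given without a test. The ratio of NOTCH2 to NOTCH1 counts differed less, at 19.6 and 20.9 at 24 h against 23.1 and 20.9 at 6 h.

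JAG1 and JAG2 rose, and JAG1 had the largest change of these 3 ligands. JAG1 (ENSG00000101384, chr20:10618332-10654694), a Jagged ligand whose loss causes Alagille syndrome, had 869 and 1018 normalized counts at 24 h and 234 and 233 at 6 h. Every 24 h value was over 3 times every 6 h value. The mean rose 4.04-fold, from 234 ± 0.794 to 943 ± 105 (SD, n = 2), a log2 fold change of 2.01 (SE 0.101, edgeR adjusted P = 1.22e-15). JAG2 (ENSG00000184916, chr14:105607318-105635161), the second Jagged ligand, had 224 and 261 at 24 h and 147 in both 6 h libraries. It rose 1.65-fold, a log2 fold change of 0.72 (SE 0.132, edgeR adjusted P = 2.80e-05).

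DLL1 (ENSG00000198719, chr6:170591294-170599561), a Delta-like ligand, had 171 and 218 normalized counts at 24 h and 169 and 155 at 6 h. One 24 h library was thus level with one 6 h library. Its log2 fold change of 0.26 (SE 0.140) was not called (edgeR adjusted P = 0.100). Without the first 24 h library the value was 0.43 and passed the test (edgeR adjusted P = 0.0147), and with that library kept and the second 24 h library left out it was 0.087.

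Per kilobase, JAG1 made up 63.5% and 62.5% of the summed counts of these 3 ligands at 24 h and 35.9% and 37.1% at 6 h. DLL1 made up 19.7% and 21.0% at 24 h and 40.9% and 38.9% at 6 h. Per kilobase DLL1 was thus ahead of JAG1 in both 6 h libraries and behind it in both 24 h libraries. This order at 6 h rests on the division by transcript length, since the ratio of JAG1 to DLL1 counts was 1.38 and 1.5 at 6 h and 5.07 and 4.67 at 24 h. JAG2 made up 16.9% and 16.5% against 23.2% and 24.0%, a smaller share at 24 h in spite of its rise. The ratio of JAG1 to JAG2 counts was 3.88 and 3.90 at 24 h and 1.60 and 1.59 at 6 h, and within each time the libraries nearly coincided.

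**Figure D3:**
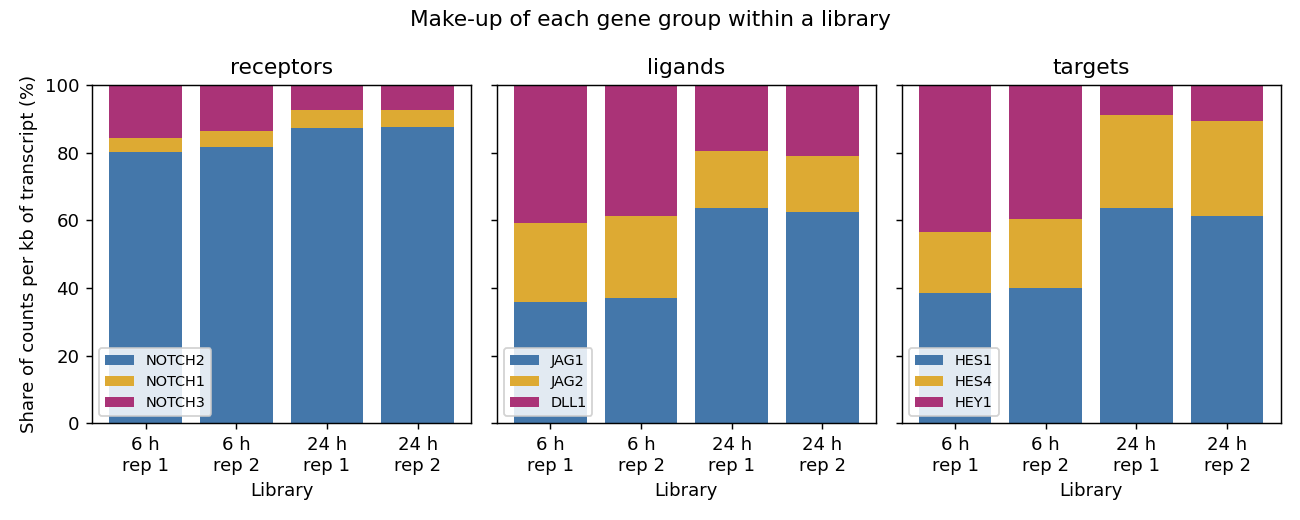
Share (%) of counts per kilobase of transcript taken by each gene within the receptors, the ligands and the target genes, with 1 bar per library and the bars adding to 100%. NOTCH2 fills most of the receptor bars at both times, JAG1 grows from 36.5% to 63.0% of the ligands on average, and HEY1 shrinks from 41.5% to 9.65% of the targets.

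LFNG (ENSG00000106003, chr7:2552163-2568811), the lunatic fringe enzyme, adds N-acetylglucosamine to O-fucose on receptor EGF repeats and is known to favor Delta-like over Jagged ligands at NOTCH1. It had 953 and 986 normalized counts at 24 h and 276 and 301 at 6 h. The libraries of each time lay close together and far from the other time. The mean rose 3.35-fold, from 289 ± 17.6 to 969.6 ± 22.9 (SD, n = 2), a log2 fold change of 1.74 (SE 0.0923, edgeR adjusted P = 3.57e-15). Over the alternatives run its value stayed between 1.61 and 1.81.

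The target genes split, with HES1 and HES4 higher and HEY1 lower at 24 h. HES1 (ENSG00000114315, chr3:193853934-193856521), a repressor that also binds its own promoter, had 302 and 236 normalized counts at 24 h and 122 and 108 at 6 h. No 6 h value reached the lower of the 24 h values. The mean rose 2.34-fold, from 115 ± 9.60 to 269 ± 46.2 (SD, n = 2), a log2 fold change of 1.23 (SE 0.144, edgeR adjusted P = 3.34e-08). HES4 (ENSG00000188290, chr1:934342-935552), a related repressor, was the least counted of the 10, with 87 and 74 raw counts at 24 h and 35 and 38 at 6 h. The times did not overlap, and its log2 fold change was 1.09 (SE 0.219, edgeR adjusted P = 9.54e-05).

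HEY1 (ENSG00000164683, chr8:80676245-80680098), a repressor known from heart and vessel development, had 99.6 and 97.3 normalized counts at 24 h and 330.3 and 256 at 6 h. The 24 h libraries were nearly equal and lay far under both 6 h libraries. The mean fell 2.96-fold, from 293 ± 52.4 to 98.5 ± 1.64 (SD, n = 2), a log2 fold change of -1.57 (SE 0.146, edgeR adjusted P = 4.46e-10). The ratio of HES1 to HEY1 counts was 3.03 and 2.43 at 24 h and 0.369 and 0.423 at 6 h. Per kilobase, the libraries of HES1 and HEY1 overlapped at 6 h, at 77.5 and 68.8 for HES1 and 87.7 and 68.0 for HEY1, and HES1 was higher in both 24 h libraries. The ratio of HES1 to HES4 was 3.48 and 3.28 at 24 h and 3.23 and 2.97 at 6 h, which differed little beside the other ratios.

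Levels between genes were compared as normalized counts per kilobase of transcript. At 24 h the order was NOTCH2 (662 ± 104), LFNG (397 ± 9.35), HES1 (171 ± 29.4), JAG1 (159 ± 17.8), HES4 (76.3 ± 9.97), NOTCH3 (55.7 ± 8.06), DLL1 (51.5 ± 8.72), JAG2 (42.0 ± 4.49), NOTCH1 (39.0 ± 4.45) and HEY1 (26.1 ± 0.435). Between neighbors in that order, the libraries of HES1 and JAG1, of NOTCH3 and DLL1, and of JAG2 and NOTCH1 overlapped. At 6 h it was NOTCH2 (402 ± 35.0), LFNG (118 ± 7.20), HEY1 (77.8 ± 13.9), HES1 (73.1 ± 6.09), NOTCH3 (72.4 ± 1.56), DLL1 (43.0 ± 2.63), JAG1 (39.3 ± 0.134), HES4 (35.7 ± 0.902), JAG2 (25.4 ± 0.00343) and NOTCH1 (21.9 ± 3.43). There the libraries of HEY1 and HES1 and those of HES1 and NOTCH3 overlapped. Per kilobase, NOTCH2 and LFNG led at both times, HEY1 went from the third place to the last, and JAG1 went from the seventh to the fourth. These places rest on the division by transcript length. In mean normalized counts, HEY1 (98.5) was above HES4 (79.3) at 24 h, and NOTCH3 (628) was above LFNG (289) at 6 h.

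Outside the 10 genes, 60 further genes of the pathway were listed by role, and 52 passed the filter on low counts. Of these 22 were called higher, 16 lower and 14 neither, with a median log2 fold change of 0.032. The shares called were 42.3% higher and 30.8% lower, beside 33.0% and 32.6% of all genes tested. With the cutoffs of the study 13 were higher and 5 lower, beside 17.4% and 17.7% of all genes tested. The receptor NOTCH4, the ligands DLL4 and DLK1, and the HES and HEY family genes HES3, HES5, HEY2 and HEYL were too low to test. They had at most 6 counts in any library.

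Of 3 further ligand genes tested, 1 rose and 1 fell, beside 33.0% and 32.6% of all genes tested. DNER, an atypical Notch ligand described in neurons, had 129 and 130 counts at 24 h and 1172 and 1385 at 6 h. This was the largest change of a ligand gene, a log2 fold change of -3.35 (SE 0.101, edgeR adjusted P = 1.58e-20), opposite in direction to JAG1. DLK2, a noncanonical ligand, had 143 and 169 counts against 70 and 84, a log2 fold change of 0.97 (SE 0.162, edgeR adjusted P = 8.53e-06), and DLL3 had 0.03 (edgeR adjusted P = 0.926).

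Of 4 further HES, HEY and feedback genes tested, 2 rose and 1 fell, beside 33.0% and 32.6% of all genes tested. They were listed by family or feedback role, and whether Notch drives them in these cells was not tested. HES2 had 157 and 179 counts at 24 h and 54 in both 6 h libraries, a log2 fold change of 1.59 (SE 0.171, edgeR adjusted P = 7.01e-09). NRARP, a target that acts back as an inhibitor of Notch, had 65 and 87 counts against 33 and 32, a log2 fold change of 1.18 (SE 0.233, edgeR adjusted P = 8.61e-05). HES7, known from the segmentation clock, fell with HEY1, from 69 and 87 counts to 8 and 20, a log2 fold change of -2.51 (SE 0.294, edgeR adjusted P = 2.99e-08), which was -2.01 without the first 24 h library and -3.29 without the second. HES6 had -0.15 and was not called (edgeR adjusted P = 0.412). The longer RBPJ form was found in 1 window among the 49 of these 60 genes that had windows, that of HES5, which had at most 1 count in every library.

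Among the other enzymes that modify the receptor sugars, 2 of 5 rose and 2 fell, beside 33.0% and 32.6% of all genes tested. The fringe gene MFNG had 12 and 15 counts against 3 and 4, with a log2 fold change of 1.87 (SE 0.559, edgeR adjusted P = 0.00494), while its adjusted P was 0.0687 in DESeq2 and 0.0641 in edgeR without the second 24 h library. The third fringe gene, RFNG, did not pass the test at 0.03 (edgeR adjusted P = 0.782), and of the 3 fringe genes LFNG was the one called under all alternatives run. POGLUT1, which adds O-glucose, had a log2 fold change of 0.38, EOGT, which adds O-linked N-acetylglucosamine, had -0.92, and POFUT1, which adds the O-fucose that fringe enzymes extend, had -0.17 with a call that several alternatives lost.

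Of 9 genes of receptor cleavage 4 rose and 3 fell (44.4% and 33.3%, beside 33.0% and 32.6% of all genes tested). The γ-secretase subunit PSEN2 rose by 1.34 on the log2 scale, the subunit APH1B fell by 0.45 and the protease ADAM17 fell by 0.89. Of 12 genes of ligand and receptor trafficking 5 rose and 4 fell (41.7% and 33.3%, beside the same shares of all genes). The largest change there was in NEURL1B, a ubiquitin ligase for ligands, which had 106 and 129 counts at 6 h but 4 and 10 at 24 h, giving a log2 fold change of -4.09 (SE 0.297, edgeR adjusted P = 3.11e-12). It was -3.59 without the first 24 h library and -4.85 without the second. The Deltex genes DTX4 and DTX3L rose by 1.56 and 1.21.

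Of 9 genes of the transcription complex 2 rose and 3 fell (22.2% and 33.3%, beside 33.0% and 32.6% of all genes tested). RBPJ, the DNA-binding partner of the receptor fragment, was lower at 24 h while HES1 and HES4 were higher, with a log2 fold change of -0.47 (SE 0.0703, edgeR adjusted P = 1.69e-06), which was -0.17 with the length and GC trend removed. The acetyltransferases KAT2A and CREBBP had 0.75 and 0.39, and CREBBP was not called with that trend removed (0.081, edgeR adjusted P = 0.332). Of 10 corepressor genes 6 rose and 2 fell (60% and 20%, beside the same shares of all genes). The Groucho family corepressors TLE1 and TLE2, which HES proteins recruit, rose by 1.42 and 0.67.

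**Figure D4:**
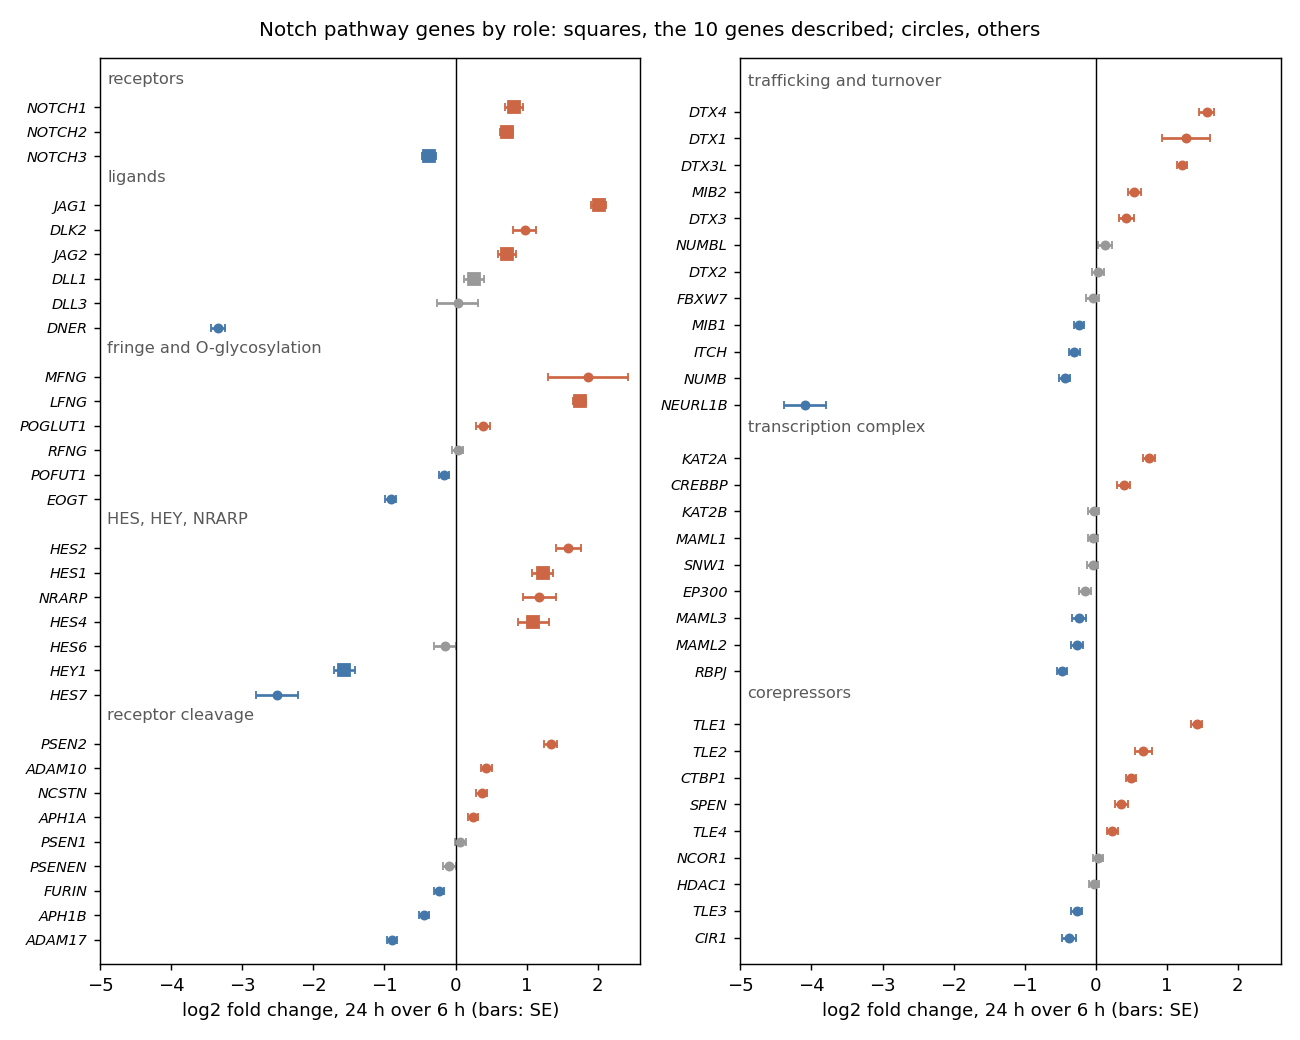
Log2 fold change (24 h over 6 h, bars are SE) of tested Notch pathway genes, ordered by role. Squares are the 10 genes described and circles the others, with orange for called higher, blue for called lower and gray for neither by the edgeR quasi-likelihood test at an adjusted P under 0.05. Every role group holds genes on both sides of 0. Among the ligands JAG1 is at 2.01 against DNER at -3.35. Among the HES, HEY and NRARP genes HES2 is at 1.59 against HES7 at -2.51.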

How the data were processed

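Total RNA from 4 TPC1 libraries, 2 at 6 h and 2 at 24 h of BLU6864, had been sequenced on an Illumina HiSeq from TruSeq libraries. The labels give 50 bp single-end reads, whereas the methods give paired-end reads. The submitters' processing notes name STAR 2.3, hg19 and DESeq2, and the methods name a later STAR version. The counting program and whether it used strand are not given in the sources used here. The authors deposited the raw count of reads per gene without normalization for 20372 genes. They also deposited a normalized signal per gene, which is the count divided by a size factor per library, and this signal was used to check the counts. The columns of the authors' own comparison (log2 fold change, its standard error, a Wald statistic, P and adjusted P) were not used. The number of per-sample columns with no sample was 0.

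The raw counts entered a model with time as its one factor in edgeR 4.0.16 (R 4.3.3). filterByExpr kept 12876 genes with 99.97% of the counts, TMM scaling and the quasi-likelihood F test were applied, and P values were adjusted over all genes tested by Benjamini-Hochberg. The fit was tested on simulated data. For normalized counts, each raw count was divided by its library's TMM-scaled size over the mean such size, and means are given ± SD over 2 libraries. Lengths and GC contents are those of the longest protein-coding GENCODE v44 transcript, matched by Ensembl ID. Gene positions are those of the table (hg19). Motifs were counted in RefSeq promoter windows of GRCh38.p14, and windows of DLL1 and HEY1 were not used here.

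All 10 genes are named. Of the other pathway genes, every receptor, ligand, HES, HEY and fringe gene and NRARP is named, and in each further role group up to 3 called genes with the largest change and a mean normalized count of at least 50. Some items that these rules cover are not reported here. The members and lists were chosen with earlier results of these data known. The replicate libraries were compared first and differed by more than sampling noise (a chi-square of 7.65 per degree of freedom for the 24 h pair and 10.0 for the 6 h pair). Each was counted as a sample, although this spread may be technical and does not show that they came from separate cultures. As alternatives, DESeq2 1.42.0 replaced edgeR, scaling used library size alone or the upper quartile, and the filter was dropped or set to a minimum of 10 counts per library. The replicate number was also added as a block, each library was left out in turn, and the cutoffs of the study were applied. Removal of the length and GC trend was added after seeing the data.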

Additional observations from a re-analysis of the deposited data

How the results depend on the processing

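All 10 Notch genes kept their direction under the 11 alternatives run for each, and 8 of them kept their call as well. The exceptions were NOTCH3 and DLL1 without the first 24 h library. With 1 library left out, the fit assumes that the lone library varies like the other time. Then the log2 fold change of NOTCH3 ranged from -0.52 to -0.23 and that of DLL1 from 0.087 to 0.43, and the counts over the 10 genes were 7 to 8 higher and 1 to 2 lower. Other pathway genes called lower were 10 to 15, with 10 without the first 24 h library, when POFUT1, FURIN, MIB1, MAML2, MAML3 and TLE3 lost their calls. By construction, the cutoffs of the study gave fewer calls, 2238 higher and 2278 lower over all genes, 1 lower among the 10, and 13 higher and 5 lower among the other pathway genes. Without length correction the mean receptor shares at 24 h and 6 h were 4.44% and 3.85% for NOTCH1, 89.8% and 84.5% for NOTCH2, and 5.75% and 11.6% for NOTCH3.

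The replicate block gave 4524 genes higher and 4448 lower, 7 and 2 of the 10, and 22 and 17 of the other pathway genes. Replicate numbers come from the titles, which do not say what a number shares, and the deviations of same-numbered libraries correlated at 0.0844 across genes, so the pairing was not used. DESeq2 gave 3584 and 3608 over all genes. Library size alone gave 3874 higher and 4542 lower and upper quartile scaling 4468 and 3892, and both left the 10 genes at 7 and 2. Genes near 0 changed sign. DLL3 was at -0.010 with library size alone, -0.021 without the second 24 h library and -0.11 with the length and GC trend removed. RFNG was at -0.015, -0.033 and -0.090 in the same order, and HES6 was at 0.0072 without the second 6 h library. With each library left out in turn, DLL3 reached 0.097 and RFNG 0.10 at the highest, and HES6 -0.28 at the lowest. The cause of these changes was not tested. With 35 to 87 raw counts, HES4 had the widest SE of the 10 genes.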
